A study of Mus musculus with 6 samples.

Results

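The CXC chemokines are a family of small secreted proteins that direct the migration of leukocytes, and 10 of their genes, *Cxcl1*, *Cxcl2*, *Cxcl3*, *Cxcl9*, *Cxcl10*, *Cxcl12*, *Cxcl13*, *Cxcl14*, *Cxcl16* and *Pf4*, were followed here in macrophages of the mouse mammary gland. They were chosen by gene symbol, and all 10 were found among the 24061 symbols of the count table. Bulk RNA-seq was performed on 6 libraries of sorted CD45+CD11b+F4/80+ cells, 3 of F4/80+Lyve-1+ cells and 3 of F4/80+Lyve-1- cells, and were made to compare the transcription of these subsets. Lyve-1 is a receptor for hyaluronan that lymphatic endothelium and a subset of tissue-resident macrophages carry on their surface. Each library was a pool from the inguinal glands of 4 FVB/N mice that carried no transgene or treatment. Replicate 1 of each subset came from 6-week-old mice and replicates 2 and 3 from 10-week-old mice, so each subset had 1 pool at 6 weeks and 2 at 10 weeks. The labels do not say whether pools of the same number shared animals, and the p-values measure the spread between these pools only.

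The libraries held between 6478007 and 21406839 counts, and a count of 0 leaves room for 3 counts, which is 0.144 to 0.437 CPM (counts scaled by library size, with TMM) in these libraries and covers counting error only. *Lyve1* followed the labels, with 1.43 to 7.43 CPM in the Lyve-1- libraries and 597 to 2352 CPM in the Lyve-1+ libraries (log2 fold change 7.93, standard error (SE) 0.94, edgeR adjusted p = 0.0254). It stood far apart in every library, although its adjusted p lay between 2.15e-18 and 0.439 over the alternative fits. All 8 macrophage markers examined were present, *Adgre1* (F4/80) under its older symbol *Emr1*. Their summed level was 3966 to 5299 CPM in the Lyve-1- libraries and 4950 to 5951 CPM in the Lyve-1+ libraries. Of the 8, 6 had a log2 fold change above 0 and 2 below (median 0.40), and none an edgeR adjusted p under 0.05. An unadjusted p under 0.05 was reached by 4 (7.69% of all genes). The subsets did not overlap for 3 that were higher in Lyve-1+ (7.82% of all genes) and 1 that was lower (6.5%). The largest value was that of *Csf1r*, at 707 to 847 CPM in Lyve-1- and 1108.5 to 1745 CPM in Lyve-1+ libraries. The smallest was that of *Ptprc*, at 1210 to 1693 and 645 to 1128 CPM. Counts fell on 652 of 1122 olfactory receptor genes in Lyve-1- replicate 3, on 370 in Lyve-1+ replicate 1 and on 4 to 134 in the other libraries. Those 2 libraries stood apart by the number of such genes hit, not by counts alone, since Lyve-1+ replicate 2 had 4160 counts on them against 9406 and 3617. Each chemokine difference that passed the test is given with and without them. At the density of counts on the olfactory receptor genes, background would account for over 5% of a chemokine's counts only in Lyve-1- replicate 3, and there only for *Cxcl9* (5.80%), *Cxcl12* (11.1%) and *Cxcl14* (11.0%).

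CXC chemokines bind receptors coupled to G proteins on the cells they attract. *Cxcl1*, *Cxcl2* and *Cxcl3* act on CXCR2 and recruit neutrophils, *Cxcl9* and *Cxcl10* are induced by interferon and act on CXCR3 of activated T cells, *Cxcl12* and *Cxcl13* organise the homing of CXCR4- and CXCR5-bearing cells, and *Cxcl16* is made as a transmembrane protein that binds CXCR6 or is released by proteases. *Pf4* (CXCL4, platelet factor 4) is best known from the granules of platelets and is also transcribed by tissue macrophages.

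Many chemokine genes of inflammation are controlled by NF-kB, a family of transcription factors activated by microbial products and cytokines. The 200 bases upstream of the transcription start were available for 9 of the 10 genes from RefSeq (GRCm38.p6). The consensus motif of NF-kB was found, on either strand, in 4 of these 9 windows and in 3.18% of 32851 promoter windows of the same length. The 4 windows are shown because they belong to *Cxcl1*, *Cxcl2* and *Cxcl10*, whose profiles across the libraries were most alike, and to *Cxcl3*. They lie at chr5:90891045-90891244 on the plus strand for *Cxcl1*, at chr5:90903699-90903898 on the plus strand for *Cxcl2*, at chr5:90785901-90786100 on the plus strand for *Cxcl3* and at chr5:92348890-92349089 on the minus strand for *Cxcl10*. They are written in the direction of the gene, with the bases of each match in capitals.
Cxcl1: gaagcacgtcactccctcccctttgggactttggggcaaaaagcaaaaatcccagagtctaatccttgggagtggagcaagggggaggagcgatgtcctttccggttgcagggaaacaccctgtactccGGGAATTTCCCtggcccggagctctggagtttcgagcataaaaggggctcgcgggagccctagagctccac
Cxcl2: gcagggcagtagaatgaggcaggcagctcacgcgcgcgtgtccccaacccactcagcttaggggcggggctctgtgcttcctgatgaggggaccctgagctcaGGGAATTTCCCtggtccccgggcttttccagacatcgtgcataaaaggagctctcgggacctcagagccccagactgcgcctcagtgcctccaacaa
Cxcl3: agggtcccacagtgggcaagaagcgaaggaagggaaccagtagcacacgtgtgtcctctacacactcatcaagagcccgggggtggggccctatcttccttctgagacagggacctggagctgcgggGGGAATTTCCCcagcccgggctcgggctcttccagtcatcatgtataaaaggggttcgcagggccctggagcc
Cxcl10: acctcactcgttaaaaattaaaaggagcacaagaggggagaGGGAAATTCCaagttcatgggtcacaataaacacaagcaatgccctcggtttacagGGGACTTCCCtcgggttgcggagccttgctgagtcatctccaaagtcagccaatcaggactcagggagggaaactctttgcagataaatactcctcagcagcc
*Cxcl1*, *Cxcl2* and *Cxcl3* held the same run of 11 bases, GGGAATTTCCC, which contains 2 overlapping matches and starts 71, 97 and 73 bases before the RefSeq transcription start. *Cxcl10* held a match 159 and another 103 bases upstream, GGGAAATTCC and GGGACTTCCC. No match was found in the windows of *Cxcl9*, *Cxcl12*, *Cxcl13*, *Cxcl14* and *Pf4*. A motif of interferon-stimulated genes, GAAANNGAAA, searched on both strands, was present in 2.27% of the promoter windows and, among the 9 chemokine windows, in that of *Cxcl14* alone. The GAS motif of interferon-gamma targets, TTCNNNGAA, was present in 5.49% of the windows and again in that of *Cxcl14* alone. Bases farther upstream were not searched. The sequences are those of the reference assembly, which is built on another strain than FVB/N, and a match describes letters and not binding.

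Of the 10 genes, 7 lie on chromosome 5 of mm10, with positions here from GENCODE M21. Its gene starts can differ from those of RefSeq, and the windows above reach into *Cxcl1* and *Cxcl2* as placed here. *Pf4* (90772435 to 90773383), *Cxcl3* (90786103 to 90789600), *Cxcl1* (90891241 to 90893115) and *Cxcl2* (90903871 to 90905938) follow each other on the plus strand with gaps of 12.7, 101.6 and 10.8 kb. *Cxcl9* (92321347 to 92328079) and *Cxcl10* (92346638 to 92348889) lie 18.6 kb apart on the minus strand, and *Cxcl13* (95956951 to 95961068) lies farther along on the plus strand. *Cxcl12* is on chromosome 6 (117168535 to 117181367), *Cxcl14* on chromosome 13 (56288643 to 56296551) and *Cxcl16* on chromosome 11 (70453983 to 70459984).

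The neighbours *Cxcl1* and *Cxcl2* were by far the most abundant chemokine transcripts in both subsets. Per kb of spliced transcript, *Cxcl2* was at 1435 ± 599 CPM (SD, n = 6 libraries) and *Cxcl1* at 1300 ± 664 CPM per kb, and together they made up 58.0% to 84.7% of the counts on the 10 genes in a library. *Pf4* followed at 436 ± 218 CPM per kb and *Cxcl16* at 148 ± 89.1 CPM per kb. *Cxcl10* (34.4 ± 18.9 CPM per kb), *Cxcl3* (27.0 ± 13.9) and *Cxcl13* (15.2 ± 14.5) formed the middle of the order. *Cxcl9* (6.75 ± 3.42 CPM per kb), *Cxcl12* (5.64 ± 2.27) and *Cxcl14* (3.14 ± 1.60) were lowest. All members were detected in all 6 libraries. Only the step from *Cxcl16* to *Cxcl10* held in 6 of 6 libraries. Every other pair of neighbours in this order changed places in at least 1 library, most often *Cxcl9* and *Cxcl12*, where the higher mean was the higher value in 3 of 6.

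**Figure D1:**
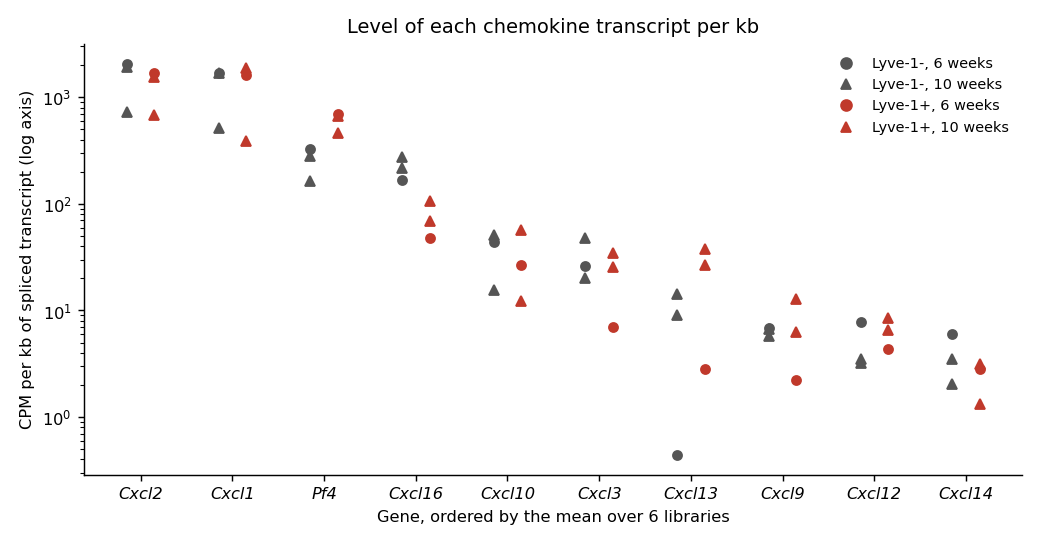
Level of each chemokine transcript in CPM per kb of spliced transcript (log axis), with genes ordered by their mean over the 6 libraries. Each point is a library, grey for Lyve-1- and red for Lyve-1+, a circle at 6 weeks and a triangle at 10 weeks. *Cxcl2* and *Cxcl1* sit at the top at means of 1435 and 1300 CPM per kb, and only *Cxcl16* and *Pf4* have grey and red points that do not mix.

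The first comparison asked which chemokine transcripts differed between the Lyve-1+ and Lyve-1- subsets. *Cxcl16* was lower in F4/80+Lyve-1+ cells, and it was the only member that passed the test. *Pf4* was higher in all 3 Lyve-1+ libraries than in any Lyve-1- library but did not pass it. The neutrophil-attracting chemokines *Cxcl1* and *Cxcl2*, although the most abundant, had overlapping levels in the subsets, as did the 6 other genes. In numbers, 1 of 10 members was called at an edgeR adjusted p under 0.05, where 84 of the 13348 genes tested (0.629%) were called. At stricter limits, which were 0.01 for the adjusted p and a log2 fold change of between 1 and 10 in size, 0 members were called, against 0.112% of all genes. DESeq2 called 2 members, *Cxcl16* and *Pf4*, where it called 1.94% of all genes. An unadjusted p under 0.05 was reached by these same 2 members and by 7.69% of all genes. The fitted log2 fold changes were above 0 for 5 members and below 0 for 5, with a median of -0.10, against 6594 and 6754 genes and a median of -0.01 over all genes tested. In bulk samples, fewer cells that transcribe a gene and less RNA per cell cannot be told apart.

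**Figure D2:**
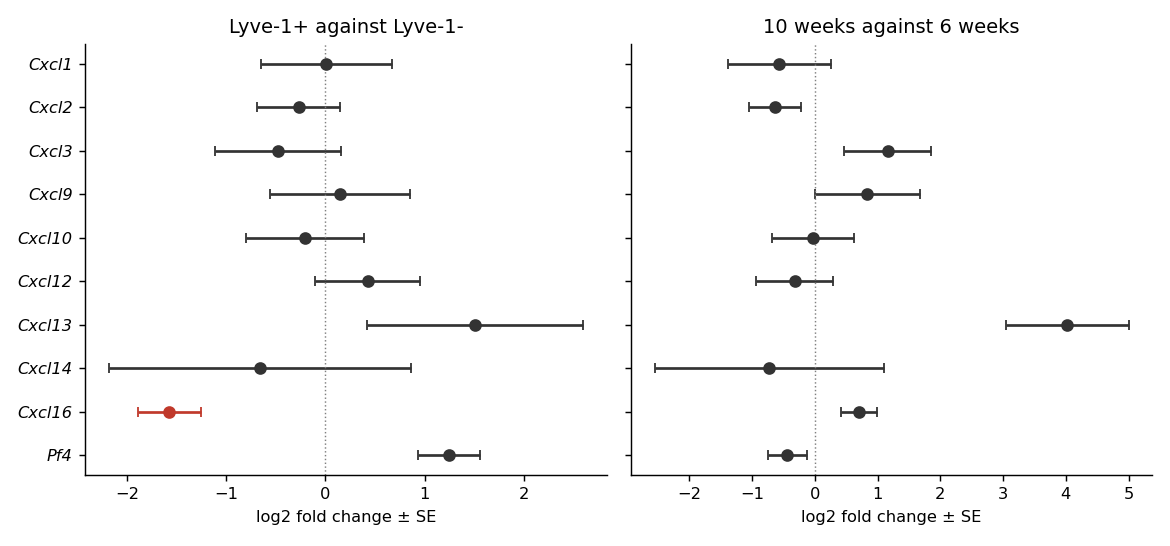
Log2 fold change with its standard error (SE) for each chemokine, between the Lyve-1+ and Lyve-1- subsets on the left and between 10 and 6 weeks on the right. Red marks an edgeR adjusted p under 0.05, which *Cxcl16* alone reached, at a log2 fold change of -1.57 between the subsets. *Cxcl13* lies farthest to the right for age, at 4.02.

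*Cxcl16*, the transmembrane chemokine, is also a scavenger receptor for oxidised lipoprotein on macrophages and dendritic cells. Replicates 1, 2 and 3 of the Lyve-1- subset held 457, 592 and 742 CPM of *Cxcl16*, and those of the Lyve-1+ subset held 129.8, 185 and 288 CPM. Every Lyve-1+ library lay below every Lyve-1- library, as was the case, in this direction, for 6.5% of all genes tested. The means were 597 ± 143 and 201 ± 80.0 CPM (SD, n = 3 pools each), a log2 fold change of -1.57 (SE 0.32, edgeR adjusted p = 0.0376). Over 16 alternative fits the adjusted p lay between 4.42e-05 and 0.546, the log2 fold change was between -1.94 and -1.17 and the call was kept in 12. The call was lost without Lyve-1- replicate 3 (-1.39, adjusted p = 0.183), without Lyve-1+ replicate 1 (-1.33, adjusted p = 0.0837), without both of these libraries (-1.17, adjusted p = 0.546) and in the 10-week libraries alone (-1.50, adjusted p = 0.112).

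The *Cxcl16* gene overlaps *Zmynd15* on the opposite strand, and of 2513 windows of 50 bases along its spliced transcript, 503 (20%) also occur in *Zmynd15*. Whether the counting used the strand is not given in the sources used here. *Zmynd15* itself had 96 to 531 counts against 1704 to 6661 for *Cxcl16*, and its log2 fold change was -1.05 (SE 0.64, edgeR adjusted p = 0.882). Dendritic cells also carry *Cxcl16*. The summed level of 7 of their markers was 471 to 1000 CPM in the Lyve-1- libraries and 138 to 465 CPM in the Lyve-1+ libraries, all 7 had a log2 fold change below 0 (median -1.37), and none was at 0 in every library. None of the 7 was called by DESeq2, or by edgeR with all 6 libraries, the filter on low counts and the subset as the only term. There was 1 at an unadjusted p under 0.05 (7.69% of all genes). The largest of these differences was in *Ccr7*, the receptor by which mature dendritic cells reach lymph nodes, at 139, 458 and 505 CPM in the Lyve-1- libraries and 14.8, 59.6 and 107 CPM in the Lyve-1+ libraries. It was called by edgeR without the filter on low counts (adjusted p = 0.0311) and with the replicate block (adjusted p = 6.1e-08). With edgeR it was also called with age as a covariate (adjusted p = 0.000172) and in the 10-week libraries alone (adjusted p = 0.00755). The part of these cells in the *Cxcl16* difference was not tested.

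For *Pf4*, replicates 1, 2 and 3 held 193.5, 167 and 95.6 CPM in the Lyve-1- subset and 413, 395 and 273 CPM in the Lyve-1+ subset. The subsets did not overlap, as was the case, in this direction, for 7.82% of all genes tested. The mean was 152 ± 50.6 CPM in Lyve-1- cells and 360.4 ± 76.3 CPM in Lyve-1+ cells (SD, n = 3 each). The log2 fold change was 1.25 (SE 0.31, edgeR adjusted p = 0.111). DESeq2 called it at 1.21 (adjusted p = 0.0125). Over the 16 alternatives the log2 fold change stayed between 0.87 and 1.44, the adjusted p lay between 0.00384 and 0.914, and *Pf4* was called in 5. The lowest adjusted p was that of edgeR with the replicate block (log2 fold change 1.28). Without both libraries that stood apart, it was 0.87 (adjusted p = 0.914).

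Platelets are the best known source of *Pf4*. The summed level of 8 of their markers was 21.9 to 35.0 CPM in the Lyve-1- libraries and 2.14 to 18.1 CPM in the Lyve-1+ libraries. Of the 8 markers 3 were abundant enough to test, all 3 were lower, none was called by edgeR or DESeq2 and none had an unadjusted p under 0.05. *Ppbp*, the chemokine that platelets store beside *Pf4*, had no counts in 3 of the 6 libraries and at most 20.2 CPM, in Lyve-1- replicate 2. The part of platelet RNA in the *Pf4* values was not tested.

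As *Pf4* and *Cxcl16* differed in opposite directions, their balance differed widely between the subsets. Per kb of transcript, the level of *Pf4* was 1.94, 1.29 and 0.591 times that of *Cxcl16* in Lyve-1- replicates 1, 2 and 3, and 14.6, 9.79 and 4.36 times in the Lyve-1+ replicates. The subsets did not overlap in this ratio, which is a description of the same values and not a further test.

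The genes whose profile over the 6 libraries was closest to that of *Cxcl16*, by the root mean square distance of centred log2 CPM, were *Lime1* (0.21), an adaptor of lymphocyte signalling, *Myo1g* (0.23), a membrane-bound myosin of blood cells, and *Ptgir* (0.24), the prostacyclin receptor. *Myo1g* was nearest to it in level, at 460, 559 and 543 CPM in the Lyve-1- libraries and 147, 223 and 314 CPM in the Lyve-1+ libraries. Closest to *Pf4* were *Ddx58* (0.16), the viral RNA sensor RIG-I, *Stab1* (0.17), a scavenger receptor of resident macrophages, and *Dab2* (0.18), an endocytic adaptor. *Stab1* was at 349, 258 and 169.7 CPM in the Lyve-1- libraries and 837, 574 and 406 CPM in the Lyve-1+ libraries.

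**Figure D3:**
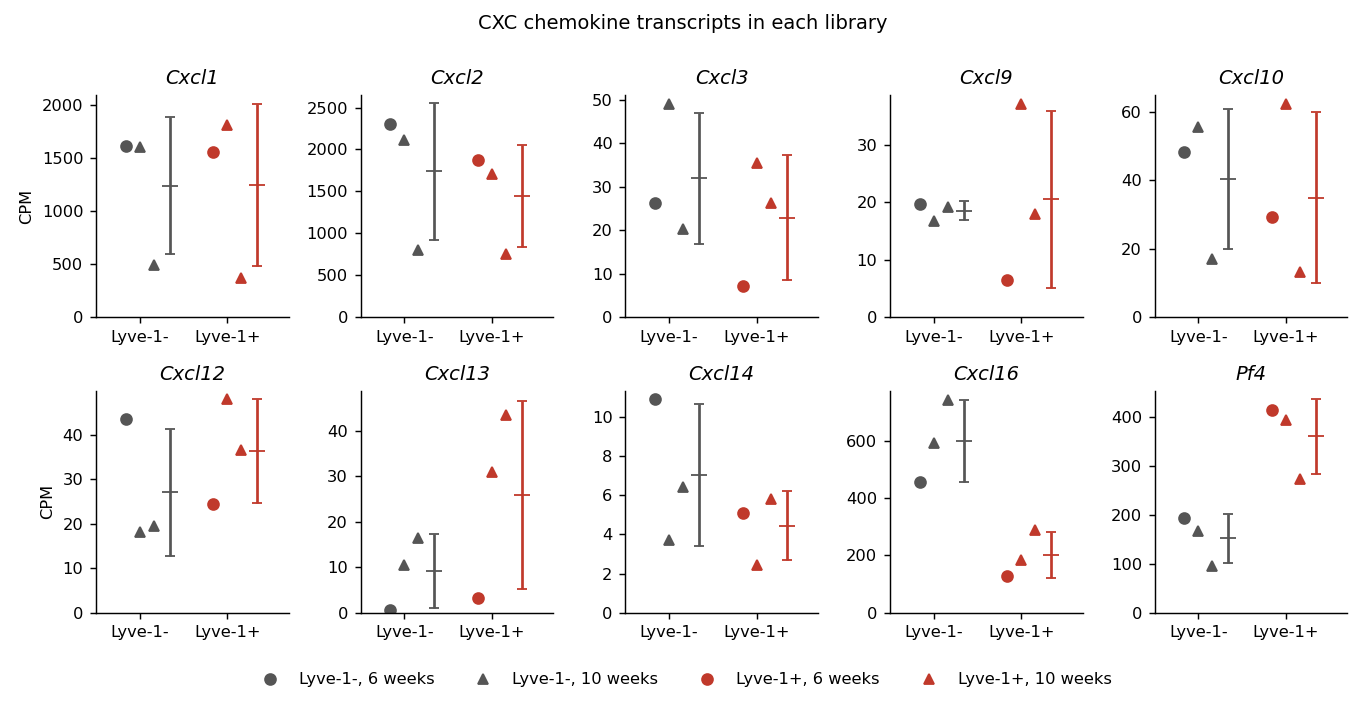
CPM of each chemokine in each library, grey for Lyve-1- and red for Lyve-1+, with circles at 6 weeks and triangles at 10 weeks. The bars beside the points are the mean ± SD of 3 pools. The subsets are apart for *Cxcl16*, at 457 to 742 against 129.8 to 288 CPM, and for *Pf4*, at 95.6 to 193.5 against 273 to 413 CPM, and they overlap in the other 8 panels.

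The chemokines that attract neutrophils overlapped in level between the subsets and varied widely between pools. *Cxcl1* was at 1611, 1603 and 491 CPM in Lyve-1- replicates 1, 2 and 3 and at 1552, 1803 and 371 CPM in the Lyve-1+ replicates. *Cxcl2* was at 2301, 2118 and 800.5 CPM and at 1873, 1709 and 749 CPM. For both genes, replicate 3 was the lowest library of its subset, and the ranges of the subsets overlapped. The log2 fold changes were 0.01 for *Cxcl1* (SE 0.66) and -0.27 for *Cxcl2* (SE 0.42), both with an edgeR adjusted p of 1. The sign for *Cxcl1* was negative when total library size or DESeq2 size factors were used in place of TMM, at -0.04 in both.

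*Cxcl3*, their close relative, was less abundant. It was at 26.4, 49.0 and 20.4 CPM in the Lyve-1- replicates and at 7.16, 35.4 and 26.2 CPM in the Lyve-1+ replicates. Its lowest library was Lyve-1+ replicate 1 and its highest Lyve-1- replicate 2, and the subsets overlapped (log2 fold change -0.48, SE 0.63, edgeR adjusted p = 1). *Cxcl2* and *Cxcl3* have 61 identical windows of 50 bases, which is 5.75% of those of *Cxcl2* and 6.31% of those of *Cxcl3*, so that reads from them could have been placed on either gene. That share of the *Cxcl2* counts comes to 316 to 2053 counts a library, more in every library than the 94 to 739 counts of *Cxcl3*. In Lyve-1+ replicate 1 it comes to 1415 counts where *Cxcl3* held 94, so not all of it was counted on *Cxcl3* there. The windows are of single stretches of 50 bases and take no account of the second read of a pair. How many *Cxcl3* counts came from *Cxcl2* was not tested, and the level of *Cxcl3* is uncertain to that extent.

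The interferon-induced chemokines were not separated by subset. *Cxcl10* was at 48.4, 55.6 and 17.1 CPM in the Lyve-1- replicates and at 29.2, 62.3 and 13.4 CPM in the Lyve-1+ replicates. As for *Cxcl1* and *Cxcl2*, replicate 3 was the lowest of each subset, and the log2 fold change was -0.21 (SE 0.60, edgeR adjusted p = 1). Of its transcript windows 84 (8.04%) also occur in *Art3*, which overlaps it on the opposite strand and had at most 47 counts in a library against 106 to 1301 for *Cxcl10*. *Cxcl9* was at 19.7, 16.7 and 19.2 CPM in the Lyve-1- replicates, a narrow range, and at 6.40, 37.0 and 18.0 CPM in the Lyve-1+ replicates, which reached both below and above it (log2 fold change 0.15, SE 0.70, edgeR adjusted p = 1).

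*Cxcl1*, *Cxcl2* and *Cxcl10* had the most similar profiles of any members. Over the 45 pairs that 10 genes make, the root mean square distances between *Cxcl1* and *Cxcl10* (0.33), *Cxcl1* and *Cxcl2* (0.34) and *Cxcl2* and *Cxcl10* (0.39) were the smallest, followed by that of *Cxcl3* and *Cxcl9* (0.52). *Cxcl3*, which also has an NF-kB match, lay at 1.22 from *Cxcl1*, 1.03 from *Cxcl2* and 0.92 from *Cxcl10*. These distances are over the same 6 libraries, and share their depth and scaling.

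**Figure D4:**
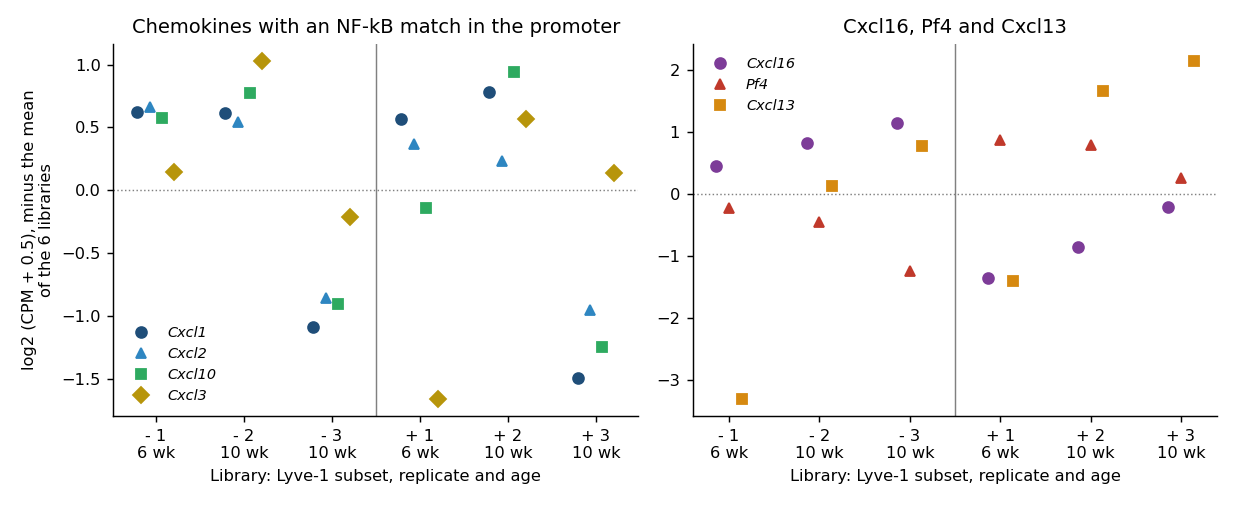
Log2 (CPM + 0.5) of single chemokines in each library after subtraction of the gene's mean over the 6 libraries, with Lyve-1- libraries left and Lyve-1+ libraries right of the vertical line in each panel. On the left, *Cxcl1*, *Cxcl2* and *Cxcl10* lie close together and are lowest in replicate 3 of both subsets. *Cxcl3*, in the same panel, does not follow them and is lowest in Lyve-1+ replicate 1. On the right, *Cxcl16* and *Pf4* lie on opposite sides by subset, and *Cxcl13* is lowest in both 6-week libraries.

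Among the chemokines of tissue homeostasis, *Cxcl12*, which retains stem cells and lymphocytes in marrow and other tissues, was at 43.5, 18.2 and 19.5 CPM in the Lyve-1- replicates and at 24.5, 48.1 and 36.5 CPM in the Lyve-1+ replicates. The subsets overlapped because of Lyve-1- replicate 1, and the log2 fold change was 0.42 (SE 0.53, edgeR adjusted p = 1). *Cxcl14*, made mainly by epithelium and fibroblasts, was the scarcest member, at 10.9, 3.73 and 6.41 CPM and at 5.10, 2.44 and 5.80 CPM (log2 fold change -0.66, SE 1.52, edgeR adjusted p = 1). Stromal fibroblasts are a common source of *Cxcl12*, and 7 of 8 fibroblast markers had a fitted log2 fold change above 0. Their summed level was 1011 to 1190.2 CPM in the Lyve-1- libraries and 1771 to 7037 CPM in the Lyve-1+ libraries, with none at 0 in every library, a median log2 fold change of 1.77, 0 called by edgeR, 3 by DESeq2 (1.94% of all genes) and 5 at an unadjusted p under 0.05 (7.69%). Among the alternatives, edgeR called 6 of them without the filter on low counts and 4 without Lyve-1+ replicate 2. The highest sum was in Lyve-1+ replicate 3, where *Cxcl12* was at 36.5 CPM and *Cxcl14* at 5.80 CPM. The summed level of 8 markers of mammary epithelium was 461, 55.3 and 206 CPM in Lyve-1- replicates 1, 2 and 3. In the Lyve-1+ replicates it was 105, 124 and 65.8 CPM. It was highest in Lyve-1- replicate 1, as was *Cxcl14*. The 7 that were tested all had a log2 fold change below 0 (median -1.30), 2 at an unadjusted p under 0.05 (7.69% of all genes). DESeq2 called none, and edgeR 1, only without the filter on low counts. The part of fibroblast or epithelial RNA in the values of either gene was not tested.

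*Cxcl13*, which draws B cells into follicles, varied most of all members. It was at 0.504, 10.4 and 16.5 CPM in Lyve-1- replicates 1, 2 and 3, from 6, 117 and 113 counts, and at 3.28, 30.9 and 43.5 CPM in the Lyve-1+ replicates, from 43, 645 and 345 counts. Its highest library exceeded its lowest 86.2 times, where the range of the other members was between 2.64 times for *Cxcl12* and 6.85 times for *Cxcl3*. The means of 9.12 ± 8.06 CPM in the Lyve-1- subset and 25.9 ± 20.6 CPM in the Lyve-1+ subset (SD, n = 3 each) gave a log2 fold change of 1.51 (SE 1.09, edgeR adjusted p = 0.976), and the subsets overlapped.

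The second comparison was between 10 and 6 weeks, in a model that also held the subset. There *Cxcl13* was higher in all 4 libraries from 10-week-old mice than in both from 6-week-old mice. The lowest 10-week library was at 10.4 CPM and the highest 6-week library at 3.28 CPM. Of all genes tested, 4.47% had ages apart in this direction. The log2 fold change of *Cxcl13* was 4.02 (SE 0.98, edgeR adjusted p = 0.519), which did not pass the test. With DESeq2 it was 4.06 (adjusted p = 0.00319), and over the 10 alternatives that kept the gene the adjusted p lay between 0.00319 and 0.823. Each subset had 1 library at 6 weeks, so that age cannot be told apart from these 2 pools.

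By edgeR 0 of 10 members were called for age, where 3 of 13348 genes (0.0225%) were called. At an unadjusted p under 0.05 there were 2 members, *Cxcl13* and *Cxcl16*, against 3.33% of all genes, and DESeq2 called 1, *Cxcl13*, against 0.262%. *Cxcl16* had a log2 fold change of 0.70 from 6 to 10 weeks (SE 0.29, edgeR adjusted p = 1), and within each subset its 6-week library was the lowest. The other members had log2 fold changes for age between -0.73 for *Cxcl14* and 1.16 for *Cxcl3*, with ages that overlapped. The median over the 10 members was -0.18 against 0.07 over all genes. Markers of B cells, which *Cxcl13* attracts, were scarce and, like *Cxcl13*, higher in sum at 10 weeks. The summed level of 4 of them was 3.02 and 10.1 CPM in the Lyve-1- and Lyve-1+ libraries at 6 weeks. It was 21.1 to 84.2 CPM in the libraries at 10 weeks, and no marker was at 0 in every library. Their median log2 fold change for age was 2.47. For other cell types it was 1.37 (lymphatic endothelium), 1.35 (T cells), 1.25 (monocytes), 1.12 (neutrophils) and 1.11 (dendritic cells). Fibroblasts (0.44) and blood endothelium (0.02) were lower, and macrophages (-0.26), platelets (-0.82) and mammary epithelium (-1.09) were below 0. For adipocytes it was 2.73, from 1 marker tested. The part of any of these cells in the *Cxcl13* difference was not tested.

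The subset difference of no member was found to change with age. In the test of the interaction, 0 members were called by edgeR, by DESeq2 or at an unadjusted p under 0.05, against 0.00749%, 0.435% and 4.59% of all genes. The 10-week libraries alone gave log2 fold changes between the subsets of -1.50 for *Cxcl16* (edgeR adjusted p = 0.112) and 1.33 for *Pf4* (edgeR adjusted p = 0.394).

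The receptors of these chemokines were mostly scarce in the sorted cells. Of 8 receptor genes 7 could be tested, 5 with a log2 fold change above 0 and 2 below, with a median of 1.76 that ranged from -0.33 to 2.32 over the alternatives. None was called by DESeq2, or by edgeR with all 6 libraries, the filter on low counts and the subset as the only term. Of the receptors, 2 had an unadjusted p under 0.05 (7.69% of all genes). *Cxcr4*, the receptor of *Cxcl12*, was the most abundant, at 163, 212 and 229.6 CPM in the Lyve-1- replicates and 106, 202 and 181 CPM in the Lyve-1+ replicates, which overlapped (log2 fold change -0.31). *Cxcr6*, the receptor of *Cxcl16*, had no counts in 3 of 6 libraries and was at most 33.3 CPM. The largest log2 fold change was that of *Cxcr3*, the receptor of *Cxcl9* and *Cxcl10*, at 4.84 (SE 2.20, edgeR adjusted p = 0.624), from 0 to 0.622 CPM in the Lyve-1- libraries and 2.52 to 19.3 CPM in the Lyve-1+ libraries. The smallest was that of *Ackr1*, an atypical receptor that takes up chemokines without signalling, at -1.69 (SE 1.01, edgeR adjusted p = 0.864).

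*Cxcr2*, the receptor of *Cxcl1* and *Cxcl2*, had no counts in Lyve-1- replicates 1 and 2, 2.48 CPM in replicate 3, and 4.50, 9.92 and 49.1 CPM in the Lyve-1+ replicates (log2 fold change 4.73, edgeR adjusted p = 0.458). It was called by edgeR without the filter on low counts (adjusted p = 0.0332) and with the replicate block (adjusted p = 0.0309). Neutrophils carry this receptor, and the summed level of 7 neutrophil markers was 76.3 to 130.03 CPM in the Lyve-1- libraries and 89.0 to 449 CPM in the Lyve-1+ libraries, highest in Lyve-1+ replicate 3 as was *Cxcr2*. None of them was at 0 in every library. Of the 5 that were tested, 3 had a log2 fold change above 0 and 2 below (median 0.70). There were 2 at an unadjusted p under 0.05 (7.69% of all genes). DESeq2 called *S100a9* alone (2.75, adjusted p = 0.0189), where it called 1.94% of all genes. With edgeR *S100a9* was called without the filter on low counts (adjusted p = 7.17e-05). The part of neutrophils in the *Cxcr2* values was not tested. *Ly6g* was not analysed here. *Cxcr2*, *Cxcr4* and *Cxcr6* were singled out after their values were seen.

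Of the 7 proteases that release or trim chemokines none passed the test with all 6 libraries, the filter on low counts and the subset as the only term. All were tested, 5 with a log2 fold change above 0 and 2 below (median 0.29). In that test and with DESeq2 0 were called, and 1 had an unadjusted p under 0.05 (7.69% of all genes). That gene was *Mmp9*, a gelatinase that cleaves several CXC chemokines, at 81.4, 26.3 and 91.4 CPM in the Lyve-1- replicates and 229, 164 and 113 CPM in the Lyve-1+ replicates. The subsets were apart, as was the case, in this direction, for 7.82% of all genes tested. The log2 fold change was 1.35 (SE 0.43, edgeR adjusted p = 0.298, with 0.0152 without the filter on low counts and 0.0427 with the replicate block). The smallest was that of *Mmp12*, the macrophage elastase, at -1.13 (SE 0.62, edgeR adjusted p = 0.797). Without Lyve-1+ replicate 2 it was -2.48 and passed the test (edgeR adjusted p = 0.046). *Adam10* and *Adam17*, which shed *Cxcl16* from the cell surface, had log2 fold changes of 0.29 and -0.01, and both were singled out after their values were seen.

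**Figure D5:**
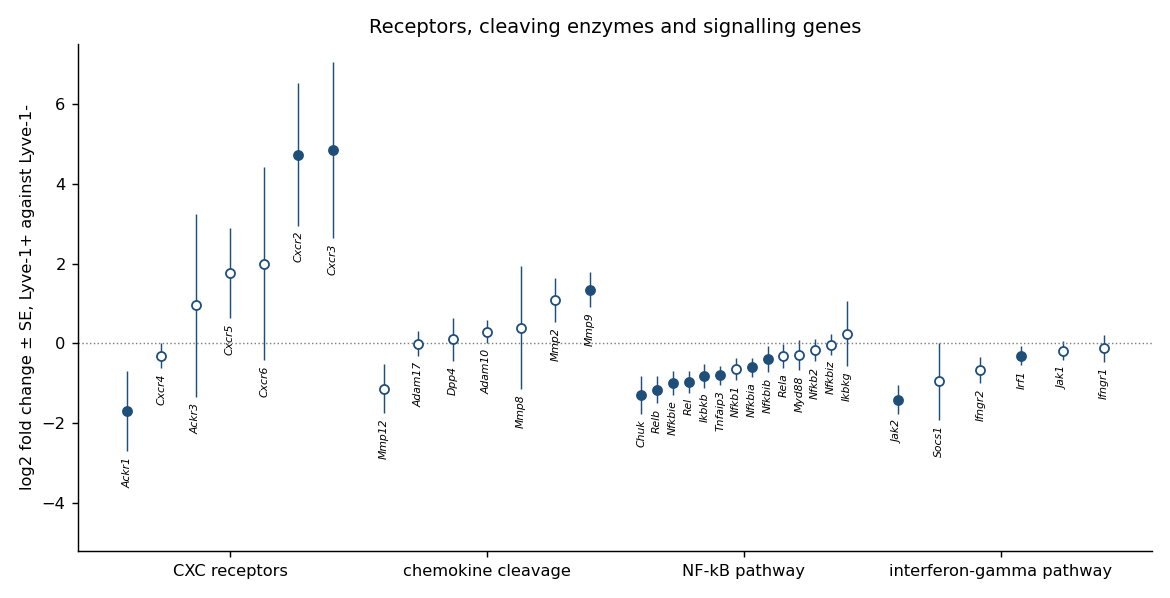
Log2 fold change between the Lyve-1+ and Lyve-1- subsets, with its SE, for genes of 4 lists. Filled points are genes whose 3 Lyve-1+ libraries all lie above or all below the 3 Lyve-1- libraries. Of the NF-kB genes 13 of 14 lie below 0, with a median of -0.62. None of the genes shown passed the edgeR test with all 6 libraries, the filter on low counts and the subset as the only term.

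The 4 chemokines with an NF-kB match had log2 fold changes between -0.48 and 0.01. All 14 genes of the NF-kB pathway were tested, and 13 had a log2 fold change below 0, with a median of -0.62 that lay between -0.75 and -0.54 over the alternatives. None was called by edgeR with all 6 libraries, the filter on low counts and the subset as the only term. An unadjusted p under 0.05 was reached by 8 of them (7.69% of all genes), and 8 had subsets that did not overlap, all lower in the Lyve-1+ libraries (6.5% of all genes). DESeq2 called 3 (1.94% of all genes), *Tnfaip3*, *Nfkbie* and *Rel*. With the replicate block edgeR called the same 3 (adjusted p = 0.0248, 0.0295 and 0.0261). *Rel*, an NF-kB subunit of immune cells, was at 499, 490.1 and 489.96 CPM in the Lyve-1- replicates and 174, 296 and 283 CPM in the Lyve-1+ replicates (log2 fold change -0.97, SE 0.27, edgeR adjusted p = 0.171). The log2 fold change of *Tnfaip3*, the inhibitor A20, was -0.80 (edgeR adjusted p = 0.237), and that of *Nfkbie*, an inhibitor that holds NF-kB in the cytoplasm, was -0.999 (edgeR adjusted p = 0.218, and 0.0384 without the filter on low counts). The smallest value was that of the kinase gene *Chuk* at -1.29 (SE 0.48, edgeR adjusted p = 0.43) and the largest that of *Ikbkg* at 0.24 (SE 0.81, edgeR adjusted p = 1).

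Of the interferon-gamma pathway, which induces *Cxcl9* and *Cxcl10*, 7 of 8 genes were tested, 6 with a log2 fold change below 0 and a median of -0.30. None was called by edgeR with all 6 libraries, the filter on low counts and the subset as the only term. At an unadjusted p under 0.05 there was 1 (7.69% of all genes), and DESeq2 called the same gene, *Jak2* (1.94% of all genes). This receptor-bound kinase was at 599.6, 498 and 486 CPM in the Lyve-1- replicates and 84.1, 223 and 288 CPM in the Lyve-1+ replicates (log2 fold change -1.41, SE 0.37, edgeR adjusted p = 0.145). It was called by edgeR without the filter on low counts (adjusted p = 0.000475), without Lyve-1+ replicate 3 (adjusted p = 0.0216) and with the replicate block (adjusted p = 0.0328). *Ifng* itself was too scarce to test, at 3.11 CPM or less. Of 5 other CXC ligands, 3 were tested, *Cxcl11*, *Cxcl15* and *Ppbp*. Their levels lay between 0 and 20.2 CPM with log2 fold changes from -1.61 to -1.42, and 0 were called by edgeR, by DESeq2 or at an unadjusted p under 0.05.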

How the data were processed

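RNA-seq covered 6 libraries of sorted mammary gland macrophages, 3 of each Lyve-1 subset. The authors mapped paired reads to mm10 with HISAT2 2.0.2, counted them per gene with featureCounts 1.5.0 (versions per the submitters' processing notes) and deposited raw counts without normalization. They also removed a failed 6-week library and, by their methods, very short genes. The strand setting and annotation of the counting are not given in the sources used here. The table held 0 columns without a sample.

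Counts were tested with edgeR 4.0.16 (R 4.3.3), by its quasi-likelihood F test with robust estimation, after TMM normalization and filterByExpr by subset, which left 13348 genes, with Benjamini-Hochberg adjustment over all of them. A call needed an adjusted p under 0.05, the limit of the study's statistics. The stricter limits of its heat map (0.01, with a fold change of between 1 and 10 in size, read here on the log2 scale) and DESeq2 1.42.0, the tool the study names, were alternatives, as were other scalings and filters, the replicate block, age as a covariate and the omission of libraries. The subset was the only term. A second model added age, and a further one the product of both. Levels per kb used the length of 1 spliced transcript of each gene from GENCODE M21, and profiles were compared on centred log2 (CPM + 0.5). The edgeR test between the subsets, and no other step, was tried on simulated counts.

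The 10 genes, the lists, the tests and the alternatives were chosen with earlier results of these data known. Every chemokine was named, and of each pathway list the genes called and those with the largest and smallest log2 fold change, except that 1 gene is not reported here. For *Cxcl16* and *Pf4* the 3 nearest profiles were named. Other genes are markers given beside a result, or were chosen after their values were seen.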

Additional observations from a re-analysis of the deposited data

Results flagged for a closer look

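No chemokine was flagged. The gene that checks the labels was, because its subset difference itself differed between the ages. From 6 to 10 weeks the log2 fold change of *Lyve1* between the Lyve-1+ and Lyve-1- subsets changed by -4.06 (edgeR interaction test, adjusted p = 0.0466), from 2352 against 1.43 CPM at 6 weeks, where each subset had 1 library, to 788 and 597 against 6.66 and 7.43 CPM at 10 weeks. The call was absent when libraries were scaled by their total counts, where 0 genes were called for the interaction with 610 at an unadjusted p under 0.05.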

How the results depend on the processing

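The count of genes called between the subsets was 84. It was 259 with DESeq2, 289 without a filter on low counts, 130 with age as a covariate, 39 in the 10-week libraries alone, 3 without both libraries with the most olfactory receptor genes and 15 at the stricter limits. Leaving out 1 library gave 19 to 153 genes, the lowest without Lyve-1- replicate 3. Of the Lyve-1+ libraries, omitting replicate 1, 2 or 3 gave 49, 153 and 133. The number of chemokines called was 1, and it was 2 with DESeq2 and without the filter, 0 in the 10-week libraries, without both libraries and at the stricter limits, and 0 to 2 with 1 library left out. With the replicate block it was 2, *Cxcl16* and *Pf4*, and 270 genes were called. The block also called *Tnfaip3*, *Nfkbie*, *Rel*, *Jak2*, *Cxcr2*, *Mmp9*, *Ccr7*, *S100a9*, *Ccr2*, *Pdgfra*, *Col1a2* and *Lum* of the lists. Over the genes tested, deviations from the subset means did not run together in same-numbered libraries (correlations of -0.0136, 0.0066 and -0.0966). No library correlated best with its own number, and the numbers were not taken to pair the samples. With 3 libraries a subset, these correlations cannot show whether the samples were paired. *Cxcl1*, *Cxcl2* and *Cxcl10* were each lowest in replicate 3 of both subsets. With the block the SE was 0.22 for *Cxcl1* and 0.21 for *Cxcl2*. For age, 3 genes were called, against 5 with total library size, 35 with DESeq2, 19 without the filter, 8 with at least 10 counts in every library, 0 at the stricter limits and 2 to 35 with 1 library left out. For the interaction, 1 gene was called, against 58 with DESeq2, 19 without the filter and 0 with total library size. The cause of these differences was not tested.

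Log2 fold changes near 0 changed sign. For *Cxcl1* the subset value was -0.0353 with DESeq2 size factors, -0.0389 with total library size, -0.0353 with DESeq2, -0.024 without the filter, -0.0033 with at least 10 counts in every library, -0.10 with the replicate block, -0.59 without both libraries and -0.39 to 0.41 with 1 library left out. For *Cxcl9* it was -0.18 with the replicate block, -0.0931 with age as a covariate and -0.61 to 0.60 with 1 library left out. For *Cxcl10* it was 0.040 in the 10-week libraries and -0.95 to 0.15 with 1 left out, and for *Cxcl2* -0.61 to 0.0088 with 1 left out. The age value of *Cxcl10* was 0.0030 with total library size. With 1 library left out it was -0.72 to 0.39 for *Cxcl10*, -1.19 to 0.80 for *Cxcl12* and -0.11 to 2.12 for *Cxcl9*. The other values of the 159 subset and 109 age alternatives of single chemokines kept their direction. *Cxcl13* was not tested under the filter of 10 counts, which its 6 counts in Lyve-1- replicate 1 did not reach. The subtraction of the olfactory receptor background was chosen after seeing the data and changed no chemokine's call. With 3 pools a group, a common coefficient of variation of 0.931 limits what the tests could show.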

Other observations

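The 10 chemokines together took 0.180% to 0.464% of all counts in a library. Both replicates numbered 3 held the smallest shares, 0.236% among Lyve-1- and 0.180% among Lyve-1+ libraries, where the other libraries held 0.389% to 0.464%. The order of *Cxcl1* and *Cxcl2* also varied between libraries. Per kb of transcript, *Cxcl2* was between 1.04 and 1.74 times *Cxcl1* in 5 libraries and 0.815 times in Lyve-1+ replicate 2.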
